A study of Mus musculus with 10 samples.

Results

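The data describe 10 genes of the oxidative stress and metallothionein response, Nfe2l2, Keap1, Hmox1, Nqo1, Gclc, Gclm, Txnrd1, Srxn1, Mt1 and Mt2, chosen by name from 17428 protein-coding genes with at least 1 cytosine in the deposited table. Their cytosines were taken from 2 kb upstream of the gene's 5′ end to its 3′ end, and the promoter, defined as 1 kb either side of a start, was kept apart from the gene body. The table held 507 cytosines in these genes, of 1348062 on the chromosomes, with 347 in 9 promoters, 146 in 6 gene bodies and 14 further upstream of Mt1 and Mt2. Nqo1 had no promoter cytosine, and Gclm, Srxn1, Mt1 and Mt2 had no cytosine in the gene body, so these parts were not measured. Each measured part was read at only some of its CpG sites, so its level is that of the sites read.

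Reduced representation bisulfite sequencing (RRBS), which reads cytosine methylation in fragments cut at CpG-containing sites, was done on prospermatogonia, the fetal male germ cells that gain methylation before birth. The control group (n = 5 pools) came from C3H/HeN dams given tap water, and the arsenic group (n = 5 pools) from C3H/HeN dams given sodium arsenite in tap water from mid to late gestation. Each pool combined testes of many late-gestation F1 embryos, sorted magnetically with an antibody to Thy1.2, so 1 value is an average over embryos and over the cells in the sorted fraction. The comparison of the groups asks whether gestational arsenic moved methylation at genes that respond to it.

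Trivalent arsenic binds thiol groups and raises oxidants, and cells answer through a pair of transcription factors. NRF2, encoded by Nfe2l2, is held back by the sensor protein KEAP1 and, once released, binds antioxidant response elements near genes for glutathione synthesis, thioredoxin recycling, haem breakdown and quinone reduction. MTF1 binds metal response elements (MREs) near Mt1 and Mt2, whose small cysteine-rich proteins hold zinc, cadmium and other metals.

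Methylation at these genes was low in the promoters and higher in the gene bodies, with no steady order by distance inside the bodies. The 9 measured promoters were nearly unmethylated, at 0.473% to 1.78% in the control group. Of these, 0 of 9 had a two-sided exact permutation p under 0.05, where 5.59% of all promoters did. The 6 measured bodies lay between 29.96% and 77.7% in the control group. Among the bodies, that of Nfe2l2 was lower in the arsenic group, 43.6% ± 7.93 against 55.3% ± 5.16 (SD, n = 5 each). Its exact permutation p was 0.0317, which did not hold after adjustment over all bodies (adjusted p = 0.417). No body of any gene passed this adjusted test, whose smallest adjusted p over all bodies was 0.359.

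**Figure D1:**
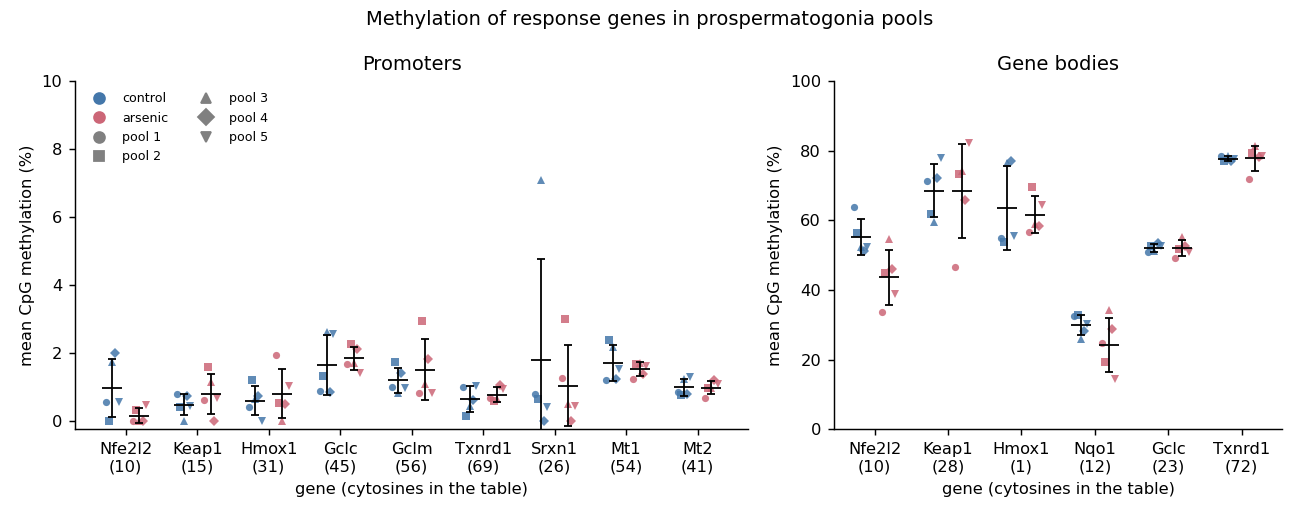
Mean CpG methylation (%) of each measured promoter (left, axis to 10%) and gene body (right, axis to 100%) in the 5 control and 5 arsenic pools, with the number of table cytosines under each gene; symbols give the pool, horizontal marks the mean and bars the SD. The Srxn1 promoter of control 3 stands at 7.09%, and the Nfe2l2 body is the one part whose group means lie 11.7 points apart.

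Facts of the libraries bear on each value. Total calls over the table ran from 44207245 to 66570870 per pool, and the median coverage of the members' cytosines from 26 to 52 reads. Single member cytosines were read 10 to 159 times, and 274 of 507 had under 20 reads in some pool. At 10 reads, a level of 0 has a 95% Wilson interval reaching 27.8%, and a level of 50% one from 23.7% to 76.3%; these intervals cover counting error only. Promoters of germ-cell genes, which are described as unmethylated in fetal germ cells and methylated in somatic cells, were used as markers, and 8 of 12 were measured. Their mean was 52.9% to 59.3% in the control pools and 48.7% to 71.8% in the arsenic pools. Single marker promoters averaged 37.4% to 69.7%, so these promoters were not free of methylation here. The list includes meiotic genes such as Sycp1 and Sycp3 and does not define the labelled cell type. Maternally imprinted promoters (8 of 10 measured), at which somatic cells carry 1 methylated copy and male germ cells none, averaged 24.7% to 33.3% in the control pools and 20.2% to 45.3% in the arsenic pools. Single promoters of that list differed widely, averaging 2.07% to 53.6%. In the mean of both lists arsenic 1 was lowest and arsenic 5 highest. Not every promoter kept this order: arsenic 1 was not lowest at Dazl or Nnat, and arsenic 5 was not highest at Ddx4 or Snrpn. Arsenic 1 also had the lowest mean level over all CpGs, 42.1%, where the other 9 pools had 45.2% to 47.3%. There arsenic 5, at 47.3%, was close to control 1, at 46.7%. Arsenic 1 and arsenic 5 stand apart by these list means, and several promoter, body, run and cytosine differences are also given without them. The part that the cell mixture had in any result was not tested.

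Short cores of the response elements were located in the promoters to see where they stood beside the measured cytosines. The core of the antioxidant response element, TGACNNNGC, and the core of the MRE, TGCACNC or TGCGCNC, where N is any base, were searched on both strands of the GRCm38 reference within 1 kb of a start. The first core was found 12 times in 7 of the 10 genes and the second 27 times in all 10. Such short cores are common: over 21938 protein-coding genes, 51.9% of windows 1 kb either side of the 5′ end hold the first and 76.9% the second. The 10 genes were searched around every annotated start, so those with more than 1 start had more sequence searched than this. In the 300-base windows of the RefSeq promoter set (GRCm38.p6), which has 8 of the 10 genes, the shares over all 32851 windows are 12.4% and 25.7%, and the MRE core matches 4 times in Mt2, 3 times in Mt1 and in Gclm, and once in Srxn1. A match is only a stretch of letters and no evidence of binding.

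Table cytosines lay within 50 bases of 6 of the 12 antioxidant element cores and 10 of the 27 MRE cores, and their mean level near a core was at most 4.54% in the control pools against 3.14% in the arsenic pools. The windows below are those with a table cytosine inside an MRE core, plus the antioxidant element cores closest to measured starts of Gclm and Txnrd1, shown 5′ to 3′ on the strand of the match with the core in capitals.
Mt2 MRE, chr8:94172718-94172747, plus strand: ggcggagctttTGCGCTCgacccaatactc
Mt1 MRE, chr8:94179176-94179205, plus strand: tgcaaacccttTGCGCCCggactcgtccaa
Srxn1 MRE, chr2:152105494-152105523, minus strand: gccccctcgcgaTGCGCTCaatggacgcgc
Gclm antioxidant element core, chr3:122245642-122245671, minus strand: ctggaagacaaTGACTAAGCagaaacctca
Txnrd1 antioxidant element core, chr10:82859104-82859133, minus strand: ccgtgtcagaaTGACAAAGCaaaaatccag
The cytosine inside the Mt2 core averaged 0.974% over the 10 pools with a highest single value of 4.60%. The cytosine inside the Mt1 core averaged 4.16% with a highest value of 9.09%, and the one inside the Srxn1 core 1.21% with a highest value of 6.25%. The 300-base RefSeq windows of Mt1 and Mt2 do not hold the Mt1 and Mt2 cores shown. No table cytosine lay in the Mt1 window or within 50 bases of its 3 MRE cores, so these were not measured. Of the 4 MRE cores in the Mt2 window, only that at 94172395 to 94172401 had table cytosines within 50 bases. These averaged 0.701% in the control and 1.10% in the arsenic pools, and the other cores of that window were not measured.

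Nfe2l2 encodes NRF2 and lies on the minus strand of chr2:75675513-75704641. Its promoter was read at 10 cytosines, all in the first intron 700 to 772 bases inside the gene. Promoter levels were 0.556%, 0, 1.73%, 2.00% and 0.556% in controls 1 to 5 and 0, 0.308%, 0, 0 and 0.465% in arsenic 1 to 5. The groups overlapped, since control 2 was also at 0, and the difference of -0.813 percentage points had an exact permutation p of 0.0635 (two-sided). Without control 2 the difference was -1.05 points with an exact permutation p of 0.00794, the smallest that these group sizes give. It was -0.555 points without control 4 and -0.623 without control 3 (exact permutation p = 0.103 for each), and -0.225 points (exact permutation p = 0.833) on levels centred on each pool's mean. The values rest on few reads, 22 methylated of 2031 in the control group and 4 of 2087 in the arsenic group.

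The Nfe2l2 body was read at 10 intronic cytosines in 3 short runs, which cover 8 of its 329 CpG sites in the reference. Its levels in controls 1 to 5 were 63.8%, 56.5%, 52.4%, 51.3% and 52.4%, and in arsenic 1 to 5 they were 33.8%, 44.9%, 54.7%, 45.9% and 38.7%. Arsenic 3 lay inside the control range and the other 4 arsenic pools below it. Over all 14640 bodies the median difference was -1.13 points, and the Nfe2l2 difference of -11.7 points lay at the 0.738 percentile of them, so few bodies fell further. The moderated test of limma on log2 ratios of methylated to unmethylated reads gave -0.65 ± 0.23 (SE) and an adjusted p of 0.664. Without arsenic 1 and arsenic 5 the difference was -6.75 points with an exact permutation p of 0.161, and it moved to -9.20 points (exact permutation p = 0.0556) without arsenic 1 alone.

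Along the Nfe2l2 body, differences between its runs were not tested. The run of 6 cytosines 19007 bases from the 5′ end stood at 66.1% ± 7.1 in the control pools against 50.5% ± 12.5 in the arsenic pools (SD, n = 5 each), with 76.5%, 68.2%, 65.5%, 63.0% and 57.2% in controls 1 to 5 and 34.6%, 53.7%, 67.6%, 53.5% and 43.0% in arsenic 1 to 5. The run of 2 cytosines furthest in, 23176 bases from the 5′ end, averaged 50.4% and 42.6%, and the pair 2014 bases in averaged 27.7% and 24.1%. In all 3 runs the groups overlapped, and without arsenic 1 and arsenic 5 their differences were -8.52, -7.84 and -1.71 points from the innermost run to the one nearest the 5′ end.

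Keap1 encodes the thiol-rich sensor that marks NRF2 for degradation and lies on the minus strand of chr9:21229730-21239361. Its promoter was read at 15 cytosines of the 5′ UTR, 480 to 591 bases from the outermost start. The level was 0.473% ± 0.31 in the control pools against 0.800% ± 0.59 in the arsenic pools (SD, n = 5 each; exact permutation p = 0.325). No pool passed 1.57%, and 7 of the 15 cytosines were at 0 in every pool.

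The Keap1 body was the most variable of the 6 over the 10 pools, with an SD of 10.4 points. Its 28 cytosines averaged 71.3%, 61.9%, 59.4%, 72.1% and 78.0% in controls 1 to 5 and 46.5%, 73.3%, 74.3%, 65.9% and 82.2% in arsenic 1 to 5. Arsenic 1 was the lowest pool and arsenic 5 the highest, the same order as in the means of the marker promoters. The group means, 68.6% ± 7.71 and 68.4% ± 13.6 (SD, n = 5 each), were close (exact permutation p = 0.992). Without those 2 pools the difference was 2.59 points (exact permutation p = 0.571).

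Within Keap1, a run of 18 cytosines over coding exon and intron sequence, chr9:21233378-21233539, held most of the body's cytosines. It stood at 72.6%, 71.1%, 62.4%, 74.3% and 85.3% in controls 1 to 5 and at 39.5%, 79.7%, 83.5%, 59.7% and 84.0% in arsenic 1 to 5. In arsenic 4 the strands parted, at 75.9% over the 11 plus-strand cytosines and 34.2% over the 7 minus-strand ones, and in control 1 they stood at 82.7% and 56.6%. Without arsenic 1 and arsenic 5 the run averaged 74.3% in the arsenic group, 1.20 points above the controls. The antisense transcript Gm16754 overlaps this end of Keap1. A second run of 3 cytosines 5245 bases in was 51.9% ± 14.9 in the control pools against 66.3% ± 12.03 in the arsenic pools (SD, n = 5 each), with overlapping pools, and 9.81 points apart without those 2 pools.

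Hmox1 encodes haem oxygenase, which opens the haem ring, and lies on the plus strand of chr8:75093621-75100589. Its promoter was read at 31 cytosines from base -409 to base 72 counted from the start, and so on both sides of it. The pools ranged from 0 to 1.19% in the control group and from 0 to 1.92% in the arsenic group, with means of 0.596% and 0.794% (exact permutation p = 0.683). The body held 1 intronic cytosine, at 54.8%, 53.8%, 76.5%, 76.9% and 55.6% in controls 1 to 5 and 56.5%, 69.6%, 59.1%, 58.3% and 64.3% in arsenic 1 to 5. Its coverage was 13 to 31 reads, and the 2 groups overlapped throughout (exact permutation p = 0.746).

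Nqo1 encodes a quinone reductase that is a standard NRF2 target and lies on the minus strand of chr8:107388225-107403206. Its body was the least methylated of the 6, at 32.6%, 32.7%, 25.9%, 28.2% and 30.3% in controls 1 to 5 and 24.9%, 19.3%, 34.1%, 28.7% and 14.4% in arsenic 1 to 5. The control pools sat close together, and the arsenic pools spread on both sides of them. The difference of -5.69 points had an exact permutation p of 0.183; without arsenic 3 it was -8.14 points (exact permutation p = 0.0397), and without arsenic 1 and arsenic 5 it was -2.60 points (exact permutation p = 0.518).

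Of the 12 Nqo1 cytosines, 10 formed an intronic run 13276 bases from the 5′ end at 25.4% ± 3.1 in the control pools against 18.96% ± 9.03 in the arsenic pools (SD, n = 5 each). Arsenic 5 was at 5.9% there, where the other 9 pools were at 15.1% to 29.0%, and without arsenic 1 and arsenic 5 the difference was -2.18 points. The other 2 cytosines, 5995 bases in, averaged 52.8% and 50.9%.

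Gclc and Gclm encode the catalytic and the modifier subunit of glutamate-cysteine ligase, the rate-limiting enzyme of glutathione synthesis. The Gclc promoter, on the plus strand of chr9:77754535-77794485, was read at 45 cytosines 257 to 966 bases inside the gene and stood at 1.65% ± 0.88 in the control pools against 1.84% ± 0.35 in the arsenic pools (SD, n = 5 each; exact permutation p = 0.627). The Gclm promoter, on chr3:122245557-122270732, was read at 56 cytosines and stood at 1.19% ± 0.38 and 1.501% ± 0.90 (SD, n = 5 each; exact permutation p = 0.563). Arsenic 2 was the highest pool for Gclm, at 2.93%. Sequence of Gm17494 and Gm6061 overlaps Gclm, and 25 of its 56 promoter cytosines were at 0 in every pool.

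The Gclc body showed how sharply the level changed inside a gene. From the promoter's 1.65% in the control group it was 6.3% over 7 cytosines 1084 bases in, 86.9% over 2 cytosines 8996 bases in, 77.2% over 6 cytosines 15060 bases in and 90.9% over 4 cytosines 31383 bases in. In the arsenic group the same runs stood at 7.5%, 90.9%, 77.0% and 90.3%. The whole body, 23 cytosines, was 52.1% ± 1.13 and 52.0% ± 2.25 (SD, n = 5 each; exact permutation p = 0.889). The last run, 38079 bases in, mixed 2 cytosines near 0 with one at 62.1% and one at 90.6% in the control pools, and its mean was 38.7% ± 1.7 in the control pools against 34.5% ± 5.5 in the arsenic pools (SD, n = 5 each). Without arsenic 1 and arsenic 5 the difference of that run was -0.661 points, where all 10 pools gave -4.19.

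**Figure D2:**
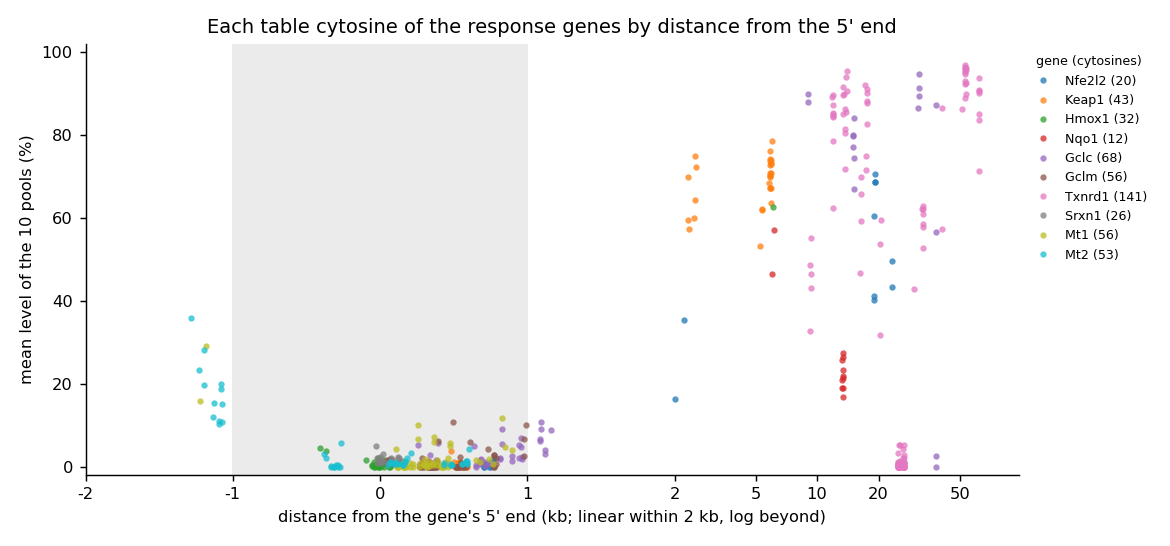
Mean methylation (%) over the 10 pools of each of the 507 table cytosines by distance from the gene's 5′ end in kb, with the promoter zone at that end shaded; the axis is linear within 2 kb and logarithmic beyond. Cytosines within the shaded zone stay near 0, those upstream of Mt1 and Mt2 and most of those inside the bodies lie higher. Further right, the large group near 0 is the Txnrd1 promoter at its inner starts, and 2 Gclc body cytosines 38164 and 38165 bases in also lie there.

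Txnrd1 encodes cytosolic thioredoxin reductase, a selenoprotein that keeps thioredoxin reduced, and lies on the plus strand of chr10:82833951-82897712. No table cytosine lay near its outermost start, and the 69 promoter cytosines surround inner starts 24981 to 26644 bases further in. They stood at 0.990%, 0.135%, 0.449%, 0.621% and 1.04% in controls 1 to 5 and 0.678%, 0.570%, 0.635%, 1.05% and 0.938% in arsenic 1 to 5. The groups overlapped (exact permutation p = 0.476), and 31 of the 69 cytosines were at 0 in every pool.

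The Txnrd1 body held the most table cytosines of the 6, 72 in 12 runs, at 53 of its 839 CpG sites in the reference. It was also the most methylated of the 6. It stood at 78.5%, 77.0%, 78.5%, 77.0% and 77.6% in controls 1 to 5 and 71.8%, 79.2%, 81.4%, 78.3% and 78.4% in arsenic 1 to 5. The control pools lay within a narrow band, and only arsenic 1 lay below and arsenic 2 and 3 above it (exact permutation p = 0.976). Without arsenic 1 and arsenic 5 the difference went from 0.125 to 1.94 points (exact permutation p = 0.0714). Runs ranged from 38.9% for 1 intronic cytosine 30011 bases in to 93.9% ± 1.2 for 13 cytosines of exon and intron 53267 bases in, where the arsenic group stood at 94.4% ± 1.0 (SD, n = 5 each).

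A run of 7 of these cytosines belongs to another gene. Eid3, chr10:82866626-82867930, lies inside a Txnrd1 intron, and its run stood at 44.0%, 53.9%, 59.6%, 51.7% and 60.2% in controls 1 to 5 and 29.7%, 75.0%, 64.7%, 69.1% and 88.2% in arsenic 1 to 5. Arsenic 1 was below all controls and the other 4 arsenic pools above them (exact permutation p = 0.302), with arsenic 1 and arsenic 5 again at the ends, and without these 2 the difference was 15.7 points. Without these 7 the Txnrd1 body was 80.3% ± 1.16 in the control pools against 79.2% ± 2.65 in the arsenic pools (SD, n = 5 each), and the sign of the difference turned, from 0.125 to -1.10 points (exact permutation p = 0.437).

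**Figure D3:**
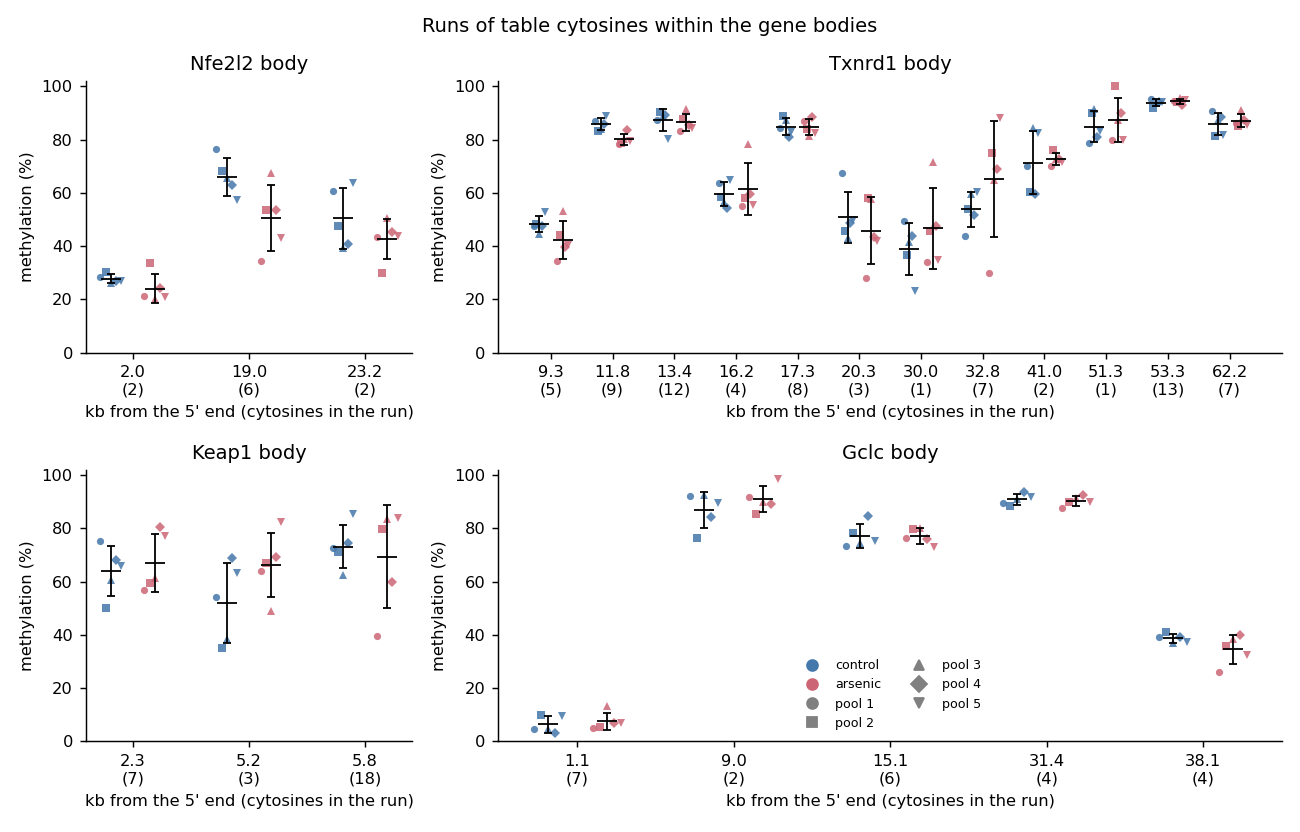
Methylation (%) of runs of neighbouring table cytosines in the bodies of Nfe2l2, Txnrd1, Keap1 and Gclc, by distance from the 5′ end in kb, with the number of cytosines in parentheses; points are pools, horizontal marks means and bars SD. The Txnrd1 run 32813 bases in, which lies in Eid3, and the Keap1 run of 18 cytosines spread most among the arsenic pools.

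Srxn1 encodes sulfiredoxin, which repairs over-oxidised peroxiredoxins, and lies on the plus strand of chr2:152105516-152111376. Its 26 promoter cytosines, all read on the plus strand, span the start from 25 bases before to 166 bases after it. Levels were 0.789%, 0.641%, 7.09%, 0 and 0.405% in controls 1 to 5 and 1.25%, 3.01%, 0.481%, 0 and 0.435% in arsenic 1 to 5. Control 3 stood above every other pool and arsenic 2 came next, and the groups overlapped (exact permutation p = 0.786). In control 3, 25 of 26 cytosines had at least 1 methylated read, with no more than 3 at any cytosine out of a coverage of 15 to 33, and in arsenic 2 it was 20 of 26. Without control 3 the difference changed sign, from -0.750 to 0.575 points (exact permutation p = 0.476).

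The metallothionein genes Mt1 and Mt2 lie side by side on chromosome 8, Mt2 at 94172664 to 94173568 and Mt1 at 94179082 to 94180327, both on the plus strand. The Mt1 promoter was read at 54 cytosines from 111 to 893 bases inside the gene, with 1.21%, 2.38%, 2.17%, 1.23% and 1.53% in controls 1 to 5 and 1.225%, 1.68%, 1.71%, 1.36% and 1.61% in arsenic 1 to 5. The arsenic pools lay inside the control range (exact permutation p = 0.50). The Mt2 promoter was read at 41 cytosines from base -382 to base 605 counted from the start, with 0.854%, 0.752%, 1.23%, 0.795% and 1.29% in controls 1 to 5 and 0.670%, 0.964%, 0.969%, 1.19% and 1.08% in arsenic 1 to 5. These groups overlapped throughout (exact permutation p = 0.937). The antisense transcript Gm45774 overlaps Mt2.

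Just outside the promoters the metallothionein locus was partly methylated. The 12 cytosines at bases -1281 to -1073 from the start of Mt2 averaged 18.7% ± 7.08 in the control pools against 18.0% ± 7.49 in the arsenic pools (SD, n = 5 each), with 23.7%, 25.6%, 7.44%, 19.2% and 17.6% in controls 1 to 5 and 14.1%, 18.0%, 11.9%, 15.1% and 30.8% in arsenic 1 to 5. Arsenic 5 was the highest pool and control 3 the lowest, and without arsenic 1 and arsenic 5 the difference was -3.67 points. The 2 cytosines upstream of Mt1, at bases -1222 and -1179, averaged 23.6% ± 5.86 and 21.2% ± 8.71 (SD, n = 5 each), with pools from 15.7% to 29.2% and from 10.7% to 31.5%. Without arsenic 1 and arsenic 5 the sign of their difference turned, from -2.41 to 1.65 points.

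Set against the whole table, the members' promoters lay at the 16.7 to 64.2 percentile of the differences and at the 5.82 to 52.6 percentile of the control levels, where the median promoter had 1.65% in the control pools. Of 13995 measured promoters, 783 (5.59%) had an exact permutation p under 0.05 and 143 (1.02%) had groups without overlap. The members had 0 of 9 for both. After adjustment over all promoters, the smallest p of the exact permutation test at any gene was 0.777. Of all promoters 71.6% were under 5% in the control group, as were all 9 here. Single cytosines gave the same picture, with 326 of 347 promoter cytosines (93.9%) under 5% on average and 107 at 0 in every pool. limma called 0% of all promoters at an adjusted p under 0.05, and for the members its adjusted p was 0.922 to 0.998, with 1 of the 9, Nfe2l2, at an unadjusted limma p of 0.0479, where 5.10% of all promoters were under 0.05.

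For gene bodies, 1565 of 14640 (10.7%) had an exact permutation p under 0.05, against 1 of 6 members, and 324 (2.21%) had groups without overlap, against 0 of 6. limma again called 0% of all bodies, with member adjusted p of 0.664 to 0.988 and Nfe2l2 alone of the 6 at an unadjusted limma p under 0.05 (p = 0.0175), where 7.31% of all bodies were. In 67.8% of all bodies the arsenic group was lower, and it was lower in 5 of the 6 members, with a median difference of -1.06 points. Of those 5, Keap1 and Gclc differed by -0.144 and -0.158 points, and both signs turned when each pool's mean level was subtracted.

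**Figure D4:**
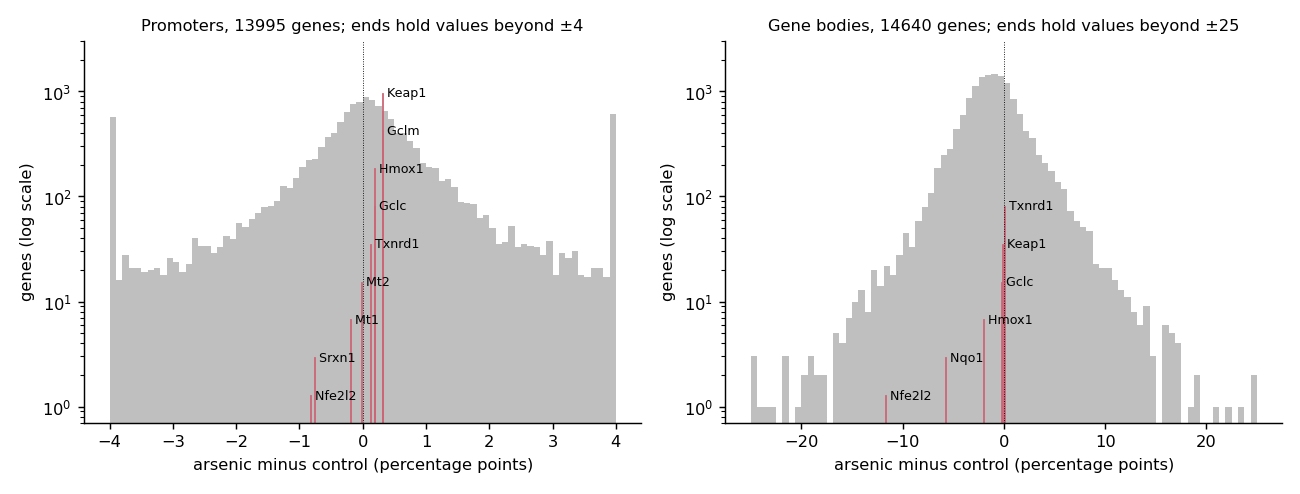
Arsenic minus control in percentage points for all 13995 promoters (left) and 14640 gene bodies (right), as counts of genes on a log scale in grey, with the members as red lines whose heights only separate the names; the outermost bars collect values beyond the axis. Most members lie in the middle of both distributions, and the Nfe2l2 body lies in the lower tail.

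At single cytosines, differentially methylated cytosines (DMCs) were called by logistic regression on pooled reads (q no higher than 0.01, with groups 10 or more points apart). The members held 4 hypoDMCs, 0.789% of 507 beside 1.48% of all CpGs, and 7 hyperDMCs, 1.38% beside 0.784% of all CpGs. All 11 were in gene bodies: Nfe2l2, Nqo1 and Keap1 had 1 each and Txnrd1 had 8, of which the 6 hyperDMCs were the Eid3 run. The test counts reads and not pools, and with a factor for the spread between pools 0 of the 11 passed. The share of all CpGs that pass with this factor is not given here, so this 0 is not read as a result about the members. limma, which uses that spread, called 0% of all CpGs and 0 member cytosines at an adjusted p under 0.05, with 23 members (4.54%) at an unadjusted limma p under 0.05 beside 6.002% of all CpGs. Without arsenic 1 and arsenic 5 the calls were 3 lower and 4 higher.

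The 5 named cytosines are the largest falls and rises among these calls, at most 1 per kb. Their sequence is given 5′ to 3′ on the strand of the cytosine, with the CpG in capitals, to show the site whose level is described.
Nfe2l2 intron, chr2:75685548-75685577, plus strand: accatgcacagaaaCGtccatgggctgctt
Txnrd1 intron, chr10:82845867-82845896, plus strand: gtcagttggtctctCGctgctaaacgagca
Nqo1 intron, chr8:107389897-107389926, minus strand: ggtgcagaggagagCGagcaagatgggtgc
Keap1 intron, chr9:21234102-21234131, plus strand: ccctccatccaggcCGagcacccatacacc
Txnrd1 intron inside Eid3, chr10:82866868-82866897, plus strand: tagctccgatgaccCGaaccccgagccccc
The first 3 were lower and the last 2 higher in the arsenic group.

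The Nfe2l2 cytosine, 19079 bases in, stood at 69.7%, 69.1%, 51.7%, 28.2% and 42.1% in controls 1 to 5 and 32.5%, 24.1%, 45.7%, 39.3% and 0 in arsenic 1 to 5, at 29 to 56 reads. The pooled difference was -22.8 points, or -17.2 without arsenic 1 and arsenic 5, where the call was lost (q = 0.0332), and the lowest control lay below 3 of the arsenic pools. The Txnrd1 cytosine 11930 bases in was the one member cytosine whose groups did not overlap, with 100%, 93.4%, 92.0%, 100% and 91.6% in controls 1 to 5 and 89.6%, 85.5%, 72.5%, 87.5% and 83.6% in arsenic 1 to 5. Of all CpGs, 0.474% were lower without overlap, against 0.197% of the members, and 0.219% were higher without overlap, against 0 members.

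That Txnrd1 cytosine was read 61 to 109 times, and its pooled difference of -12.6 points was -14.9 without arsenic 1 and arsenic 5. Its limma p was 0.00340 unadjusted and 0.830 adjusted. The run of 9 cytosines around it averaged 85.7% ± 2.3 in the control pools against 80.1% ± 2.1 in the arsenic pools (SD, n = 5 each), with controls from 83.3% to 88.9% and arsenic pools from 78.5% to 83.7%. Only arsenic 4, the highest arsenic pool of this run, reached into the control range.

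The Nqo1 cytosine stood at 21.9%, 34.5%, 18.4%, 30.7% and 26.8% in controls 1 to 5 and 10.7%, 11.1%, 31.6%, 10.8% and 11.4% in arsenic 1 to 5. Arsenic 3 was inside the control range and the other 4 arsenic pools were below it, for a pooled difference of -10.9 points, or -8.52 without arsenic 1 and arsenic 5 (q = 0.0959, no longer called). The Keap1 cytosine stood at 38.1%, 28.0%, 36.0%, 62.5% and 52.6% in controls 1 to 5 and 60.0%, 64.1%, 36.8%, 73.0% and 81.5% in arsenic 1 to 5, a pooled difference of 25.6 points at 16 to 64 reads, or 20.98 without arsenic 1 and arsenic 5 (q = 0.0167, no longer called). The Txnrd1 cytosine inside Eid3 stood at 37.9%, 50.4%, 65.7%, 50.6% and 53.8% in controls 1 to 5 and 28.6%, 73.3%, 66.7%, 70.9% and 86.9% in arsenic 1 to 5. Arsenic 1 was lowest and arsenic 5 highest there, and the pooled difference was 16.9 points, or 18.6 without these 2 pools.

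**Figure D5:**
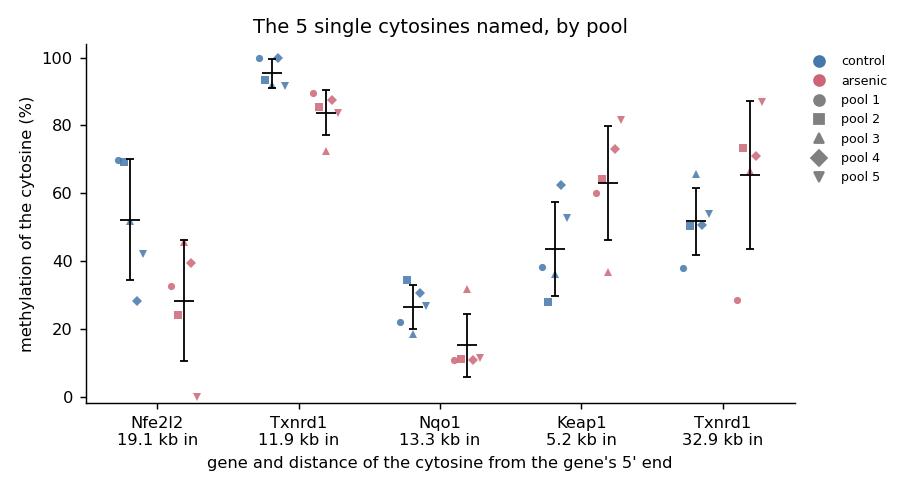
Methylation (%) of the 5 named cytosines in each pool, with the gene and the distance from its 5′ end in kb; symbols give the pool, horizontal marks the mean and bars the SD. The groups do not overlap at the Txnrd1 cytosine 11930 bases in and overlap at the other 4.

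The wider pathway was described with a list of 57 further genes for NRF2 control, glutathione, thioredoxin, other antioxidant enzymes, NADPH supply and metal handling. Of its 50 measured promoters 4 (8%) had an exact permutation p under 0.05, against 5.59% of all promoters, and none had groups without overlap. Of its 42 measured bodies 4 (9.52%) passed, all lower in the arsenic group, against 10.7% of all bodies, and 3 (7.14%) had groups without overlap against 2.21%. The median difference was 0.0588 points for the promoters and -1.78 points for the bodies, where all genes had 0.0688 and -1.13 points. limma called 0 of these 92 parts, with 3 promoters (6%) and 5 bodies (11.9%) at an unadjusted limma p under 0.05, beside 5.10% and 7.31% of all genes.

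By group, the NRF2 control genes, which include partner and competitor factors and the ubiquitin ligase that KEAP1 serves, had 0 of 10 promoters and 0 of 9 bodies past the exact permutation test. The glutathione genes had 1 of 10 promoters and 1 of 8 bodies, the thioredoxin genes 1 of 10 and 0 of 6, and the other antioxidant enzymes 0 of 8 and 1 of 6. The NADPH genes had 0 of 6 promoters and 1 of 6 bodies, and the metal and heat shock genes 2 of 6 and 1 of 7. Of all genes, 5.59% of promoters and 10.7% of bodies passed. Those 2 promoters moved in opposite directions near 0. From the control to the arsenic group, Hspa1a went from 1.96% to 0.708% and Hspa1b from 0.101% to 0.839%. Their adjusted p from the exact permutation test was 0.838 and 0.795, where the smallest over all promoters was 0.777. The 3 bodies without overlap, picked out after their values were seen, were Abcc4, a conjugate exporter, at 74.0% and 71.1%, Cat, the catalase gene, at 67.4% and 62.5%, and Mtf1, the metal response factor, at 90.4% and 87.9%.

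The largest promoter difference of the list was at Glrx, the glutaredoxin gene, read at 5 cytosines. It stood at 49.8%, 11.8%, 23.9%, 32.9% and 34.7% in controls 1 to 5 and 7.62%, 7.21%, 17.5%, 11.8% and 4.93% in arsenic 1 to 5, and only control 2 reached down into the arsenic values (exact permutation p = 0.0238, adjusted p = 0.795). Ggt1, a glutathione-cleaving enzyme, stood at 83.7% ± 3.12 and 80.0% ± 4.71 (SD, n = 5 each; exact permutation p = 0.175). Slc7a11, the cystine importer, stood at 3.65% ± 1.26 and 6.50% ± 2.61 (SD, n = 5 each; exact permutation p = 0.0159, adjusted p = 0.795), with arsenic 2 at 11.1% and the other arsenic pools at 5.04% to 5.91%.

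Among bodies read at 3 or more cytosines, the largest differences of the list were at Gpx4, the lipid peroxide reductase, Hspa1a, an inducible heat shock protein, and Txn1, thioredoxin itself. The bodies of G6pdx and Txnrd3, each read at 1 cytosine, differed by 10.3 and 9.75 points in the other direction (exact permutation p = 0.286 and 0.1905). Gpx4 stood at 37.8% ± 7.24 in the control pools against 27.3% ± 6.49 in the arsenic pools (SD, n = 5 each; exact permutation p = 0.0556). Hspa1a stood at 69.0% ± 6.98 and 59.2% ± 7.78 (SD, n = 5 each; exact permutation p = 0.0873), and Txn1 at 75.7% ± 9.28 and 67.6% ± 8.42 (SD, n = 5 each; exact permutation p = 0.198). None of the 3 passed the test. Differences of the wider list are given with all 10 pools. Arsenic 1 and arsenic 5 were the lowest pools at Gpx4, at 22.0% and 20.2%.

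The most variable member promoter and body were also set against all other genes by their pattern over the 10 pools. The Srxn1 promoter was most like those of Usp11 (Pearson r = 0.985), March8 (r = 0.983) and Fam81a (r = 0.972) among 3450 promoters, and in each of these control 3 was highest and arsenic 2 second. The values in control 3 were 7.65%, 11.9% and 13.7%, and in arsenic 2 they were 3.33%, 5.22% and 4.23%. The Keap1 body was most like those of Klk11 (r = 0.973), Sh3bp5l (r = 0.966) and Alox15 (r = 0.961) among 11330 bodies, with arsenic 1 lowest and arsenic 5 highest in all 3. Genes in these comparisons share the 10 libraries, and the likeness is a description. They were picked for that likeness, so the shared order of the pools follows in large part from the choice.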

How the data were processed

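The authors trimmed RRBS reads (Trim Galore 0.6.5), aligned them to mm10 (Bismark 0.22.3) and united the calls with methylKit 1.22.0, keeping strands apart and cytosines with at least 10 reads in all 10 libraries. The deposited table holds raw counts per cytosine: coverage, methylated and unmethylated reads. Treatment of duplicates and overlapping mates was not given in the sources used here; 56.8% of all coverage values were even. Of the table's CpGs on the 19 autosomes and sex chromosomes, 99.988% lay at a CpG of the GRCm38 reference; rows on other sequences were left out. Strain differences from the reference were not examined.

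The level of a cytosine was methylated reads over coverage, and the mean per gene part and pool was compared (GENCODE M21 basic; starts of protein-coding transcripts; overlapping genes not separated). A two-sided exact permutation test over 252 assignments was adjusted over all parts of a kind (Benjamini-Hochberg). limma 3.58.1 (R 4.3.3) was fitted to log2((methylated + 1)/(unmethylated + 1)) over all promoters, bodies and CpGs. DMCs came from a logistic regression likelihood ratio test on read counts over all CpGs (numpy 2.4.6, scipy 1.17.1). A replicate block, that is swaps within replicate numbers, was an alternative. Scripts were tested on simulated data.

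Members and lists were chosen with earlier results of these data known. All 10 members were named; of their DMCs, the 3 largest falls and 3 largest rises at most 1 per kb (2 rises exist under this rule); of the wider list, the 3 promoters and 3 bodies with the largest differences among parts with at least 3 cytosines; and for the most variable member promoter and body, the 3 genes with the highest Pearson r.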

Additional observations from a re-analysis of the deposited data

Results flagged for a closer look

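The Srxn1 promoter in control 3, at 7.09%, was far from the other control pools by Dixon's gap test: its gap to the nearest control was 0.889 of the group's range. It was 1 flag in 34 such tests, and chance flags about 1 in 20 groups, or 1.7 here. Methylated reads were spread over 25 of the 26 cytosines, and arsenic 2, the next highest pool at 3.01%, had them at 20 of 26. The cause was not tested.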

How the results depend on the processing

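No member promoter or body was called by limma under any alternative, and its smallest adjusted p ran from 0.480 to 0.879. With 5 pools against 5 no exact p can go below 0.00794, and at 10 reads a single cytosine at 0 has an interval to 27.8%.

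The count of member promoters past the exact test, 0, was 1 without control 2 (leave-one-out range 0 to 1). The count of member bodies, 1, was 0 without arsenic 1 and 5, and 0 to 2 leaving out each pool. It was also 0 with the replicate block, but 32 swaps cannot give an exact p under 0.05 for any part. That 0 was therefore fixed in advance and says nothing about the members. The labels number the pools, but deviations of same-numbered pools did not move together (correlations -0.0396 to 0.0841 over 13565 bodies), so the numbers were not treated as pairs; under the block the Nfe2l2 body had an exact p of 0.125. The hypoDMCs, 4, were 0 with an overdispersion factor, 1 at a difference of 20 points and 2 to 6 leaving out each pool. The hyperDMCs, 7, were 0, 1 and 0 to 10 under these, and 4 without arsenic 1 and 5. Storey q-values gave 4 and 8. Leaving out control 2, arsenic 5 or both arsenic 1 and 5 ended the Nfe2l2 cytosine's call, leaving out arsenic 3 that of the non-overlapping Txnrd1 cytosine, and leaving out arsenic 5 those of the Keap1 cytosine and the one in Eid3; the Nqo1 call ended without any of 6 pools in turn, and the Keap1 and Nqo1 calls also without arsenic 1 and 5 together. The cause was not tested.

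Differences near 0 changed sign. Gclm was -0.425 and Mt1 0.0315 points (promoters, coverage of at least 20), and on levels centred on each pool's mean Mt2 was 0.577 and Mt1 0.401. The alternatives without arsenic 1 and 5 together and without Eid3 were added after seeing the data. Without arsenic 1 and 5 the promoters of Hmox1 and Mt2 were at -0.253 and 0.0550, and the bodies of Keap1 and Gclc at 2.59 and 1.12. The Gclc body was 0.0728 at the study's promoter width and 0.430 centred. The Keap1 body was 0.261 at coverage of at least 20, 2.11 with strands merged, 2.10 from summed reads and 0.444 centred. The Txnrd1 body was -1.10 without Eid3. Leaving out each pool, promoter differences ran from -0.0846 to 0.396 (Hmox1), -0.000718 to 0.225 (Txnrd1), -0.0441 to 0.483 (Gclm), -0.0692 to 0.0659 (Mt2), -0.0108 to 0.431 (Gclc) and -1.24 to 0.575 (Srxn1), and body differences from -3.58 to 5.34 (Keap1), -4.39 to 1.38 (Hmox1), -0.778 to 1.63 (Txnrd1) and -0.982 to 0.540 (Gclc). The Nfe2l2 body kept its sign under every alternative run, from -14.4 to -6.24 points, the latter at the study's promoter width. No value could be had for the Nfe2l2 and Gclc promoters at that width, the Txnrd1 promoter at the 5′ end alone, or the Nfe2l2, Keap1 and Hmox1 promoters and Hmox1 body at coverage of at least 20.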

Other observations

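In an intron of Gclc, both strands of the CpG at positions 77792699 and 77792700 of chromosome 9 were at or near 0 in all 10 pools, at 0 to 8% on the plus strand (10 to 36 reads) and 0 on the minus strand (46 to 110 reads). The nearest table cytosines of the same run were higher, at 62.1% ± 4.93 in controls and 51.1% ± 11.2 in arsenic pools on the one side, position 77792614, and at 90.6% ± 5.09 and 84.2% ± 9.35 on the other, position 77792775 (SD, n = 5 each). The mean of that Gclc run is therefore a mean of unlike cytosines. The cause was not tested.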
